A study of Mus musculus with 8 samples.

Results

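Epithelial cells of the colon are held together by a belt of junctions, and 9 genes of that belt other than the claudins are described here. They are Ocln, Marveld2, F11r, Cxadr, Tjp1, Tjp3, Cgn, Cdh1 and Ctnnb1. They were chosen by name, as tight junction scaffold and adherens genes, with earlier results of these data known. Of the 9, 8 had a probe set that matched their RefSeq accessions, with 10 probe sets in all, out of 14351 genes and 15228 matched probe sets. Cgn (cingulin) matched none and was not analysed here. The samples are RNA from the colon of adult mice, measured on Affymetrix arrays: 3 arrays labelled WT (wild type, female), 3 labelled STAT5b-/- (mice deficient in the transcription factor STAT5b, replicate 1 male and replicates 2 and 3 female) and REF (wild type, female). REF was deposited as 2 columns that differed by at most 2.47e-07 of their value and was counted as 1 sample, and the labels do not say what the word stands for. No treatment, strain, exact age or way of making the deletion is given, and the labels do not tell whether each replicate is its own animal. A p-value here therefore reflects the scatter of these arrays alone, part or all of which may be technical.

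Tight junctions lie at the apical edge of neighbouring cells and limit what passes between them. Their strands are built by claudins and by proteins such as occludin, and scaffold proteins of the zonula occludens family tie the strands to the actin belt. Just below lie the adherens junctions, in which E-cadherin binds its like on the next cell and beta-catenin links it to the cytoskeleton. Beta-catenin also carries the Wnt signal in the nucleus. In the colon these junctions separate the gut contents from the tissue beneath, and occludin and zonula occludens proteins are common readouts of that barrier.

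RefSeq promoter windows of assembly GRCm38.p6, running from 250 bases before a start site to 50 after it, were found for 7 of the 9 genes (11 windows). Cdh1 and Cxadr had no entry in that table. The windows were searched on both strands for TTCNNNGAA, the palindromic element that STAT factors bind, for CAGGTG, the E-box that repressors of the Snail and ZEB families bind, and for TATAAA. Matches of different motifs did not overlap in these windows. TTCNNNGAA was in 0 of the 11 windows and in 8.3% of all 32851 windows. TATAAA was in 3 of 11 and in 13.6% of all. CAGGTG was in 7 of 11 and in 20.2% of all: in every window of Ocln, Marveld2, F11r and Tjp3, and in none of Tjp1, Cgn or Ctnnb1. Ocln, Marveld2, Tjp3 and Ctnnb1 each had 2 windows, which overlap in part for all of these but Tjp3, so the 7 are not independent. For each of the 3 genes that rose and had an entry 1 window is shown, with 1 window of Marveld2, which neighbours Ocln in the genome, and of Tjp1, which holds none of the motifs. Each runs 5′ to 3′ from 250 bases before the start site through the first 24 bases of the transcript, and capitals mark a match to a motif on either strand.
Ocln, chr13:100552695-100552968, minus strand: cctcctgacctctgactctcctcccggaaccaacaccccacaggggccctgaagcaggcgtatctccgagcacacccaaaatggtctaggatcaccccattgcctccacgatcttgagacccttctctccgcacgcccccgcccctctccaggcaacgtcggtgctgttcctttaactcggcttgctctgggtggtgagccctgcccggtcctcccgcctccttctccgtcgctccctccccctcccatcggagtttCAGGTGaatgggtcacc
F11r, chr1:171437311-171437584, plus strand: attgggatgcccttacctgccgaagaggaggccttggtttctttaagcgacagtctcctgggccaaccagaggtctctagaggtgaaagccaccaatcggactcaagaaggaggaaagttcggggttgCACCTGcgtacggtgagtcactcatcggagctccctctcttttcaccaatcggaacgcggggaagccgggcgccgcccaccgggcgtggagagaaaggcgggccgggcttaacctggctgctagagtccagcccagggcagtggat
Tjp3, chr10:81291558-81291831, minus strand: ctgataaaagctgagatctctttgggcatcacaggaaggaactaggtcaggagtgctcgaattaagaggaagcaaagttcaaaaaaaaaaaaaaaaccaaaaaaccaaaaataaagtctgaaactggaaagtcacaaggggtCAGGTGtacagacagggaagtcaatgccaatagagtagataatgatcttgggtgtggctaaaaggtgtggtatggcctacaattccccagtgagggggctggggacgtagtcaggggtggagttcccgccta
Marveld2, chr13:100616921-100617194, minus strand: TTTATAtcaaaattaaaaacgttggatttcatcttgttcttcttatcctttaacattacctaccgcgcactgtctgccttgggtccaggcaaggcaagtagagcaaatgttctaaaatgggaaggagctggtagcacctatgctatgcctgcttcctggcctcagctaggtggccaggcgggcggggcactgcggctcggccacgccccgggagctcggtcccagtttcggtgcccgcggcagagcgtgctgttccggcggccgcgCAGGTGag
Tjp1, chr7:65371221-65371494, minus strand: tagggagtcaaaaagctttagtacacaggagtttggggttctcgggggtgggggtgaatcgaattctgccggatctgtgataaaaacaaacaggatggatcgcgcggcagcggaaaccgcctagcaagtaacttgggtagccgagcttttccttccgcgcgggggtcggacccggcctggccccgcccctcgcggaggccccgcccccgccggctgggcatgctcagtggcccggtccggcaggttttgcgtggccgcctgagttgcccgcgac
In the windows shown, the E-box of Ocln begins 7 bases after the start site and that of Marveld2 16 bases after. That of F11r begins 122 bases before the start site and that of Tjp3 108 bases before. The windows of the other start sites, not shown, hold a further E-box in Ocln, 68 bases before that start site, and in Tjp3, 17 bases before. A match is a run of letters and says nothing of binding in these mice.

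Each value is relative to the average of the WT arrays, so no gene could be called abundant or scarce and no gene's level could be set against another's. The labelled tissue could not be checked by the level of epithelial markers for the same reason. Stat5b itself had ratios of 1.08, 0.930 and 0.993 in WT, 1.16, 1.17 and 1.26 in the arrays labelled STAT5b-/- and 1.18 in REF. Its log2 fold change of 0.26 ± 0.12 (SE) did not pass (limma adjusted p = 0.175). Which part of the gene is missing is not given, so every direction here rests on the labels. In WT replicate 2 the median over all genes lay 0.05 above the WT mean on the log2 scale, and in replicates 1 and 3 it lay -0.05 and -0.03 from it. In these mixed-tissue samples a change in the number of cells of a type and a change in RNA per cell cannot be told apart.

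The comparison of interest is STAT5b-deficient with wild type colon. F11r, Cxadr, Ocln and Tjp3 rose in the arrays labelled STAT5b-/-, from 2.41-fold for F11r to 1.56-fold for Tjp3. Marveld2, Tjp1, Ctnnb1 and Cdh1 had smaller log2 fold changes, from 0.42 down to 0.12, that did not pass the test. Thus 4 of 8 measured genes were called higher and 0 lower (limma, Benjamini-Hochberg adjusted p under 0.05), where 13.3% of all 14351 genes were called higher and 8.42% lower, 21.7% in all. Their median log2 fold change was 0.53, against 0.01 over all genes. When all arrays were forced to one distribution by quantile normalization, 0 of the 8 passed, 38.2% of all calls were higher in place of 61.2%, and the 4 genes had log2 fold changes of 0.43 to 0.91. The 4 calls thus did not hold in this setting. Division by the WT mean in itself narrows the WT arrays, and its part in the loss was not tested.

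**Figure D1:**
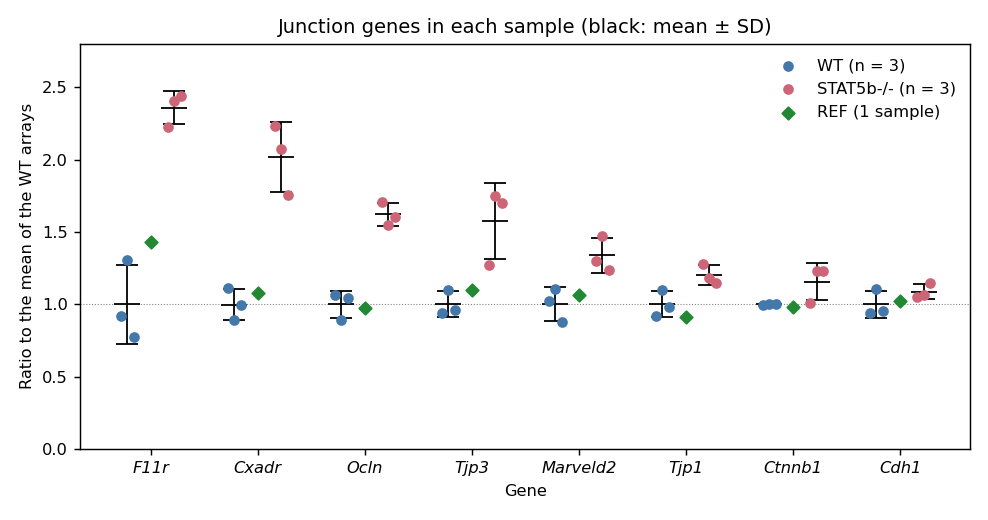
The vertical axis gives each ratio, relative to the WT average, for each of the 8 measured junction genes, ordered by their change. Points are single arrays (blue WT, red STAT5b-/-, green diamond REF), and black bars are mean ± SD of 3 arrays. The red points of F11r, Cxadr, Ocln and Tjp3 lie above all blue and green points, while those of Cdh1 lie among them.

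The membrane proteins of the tight junction come first. F11r encodes junctional adhesion molecule A, an immunoglobulin-like protein that adheres between cells and recruits polarity proteins. F11r had ratios of 0.922, 1.30 and 0.775 in WT and of 2.23, 2.41 and 2.44 in the arrays labelled STAT5b-/-, with 1.43 in REF. The groups did not overlap, the WT arrays were the most scattered of the 8 genes, and REF lay above all 3 of them. The mean ratio was 2.36 ± 0.114 against 1.0 ± 0.273 (SD, n = 3 each), and the fold change was 2.41 with a 95% interval of 1.73 to 3.37 (limma adjusted p = 0.00627). Only 3.11% of all genes had a higher log2 fold change.

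Cxadr encodes the coxsackievirus and adenovirus receptor, a relative of F11r that sits at epithelial junctions. Averaged over its 2 probe sets, Cxadr had ratios of 1.11, 0.893 and 0.992 in WT, 2.23, 2.07 and 1.76 in the arrays labelled STAT5b-/-, and 1.08 in REF. The lowest array labelled STAT5b-/- was thus well above the highest wild type sample. The mean was 2.02 ± 0.243 against 0.998 ± 0.108 (SD, n = 3 each), a fold change of 2.02 with an interval of 1.58 to 2.59 (limma adjusted p = 0.0047). The 2 probe sets, which carry different transcript accessions, gave like changes when fitted singly. NM_001025192_at rose by 0.97 ± 0.13 on the log2 scale (limma adjusted p = 0.00414) and NM_009988_at by 1.06 ± 0.19 (limma adjusted p = 0.0124).

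Ocln encodes occludin, a membrane-spanning protein of the strands. Its ratios were 1.06, 0.891 and 1.05 in WT, 1.71, 1.55 and 1.61 in the arrays labelled STAT5b-/- and 0.976 in REF. The groups did not overlap, and both were tight, with SDs of 0.0943 and 0.0805. The fold change was 1.62 with an interval of 1.32 to 2.01 (limma adjusted p = 0.0102), and 10.3% of all genes had a higher one.

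Marveld2 encodes tricellulin, a relative of occludin that seals the points where 3 cells meet. Its ratios were 1.02, 1.10 and 0.874 in WT, 1.30, 1.47 and 1.24 in the arrays labelled STAT5b-/- and 1.06 in REF. The groups did not overlap, but the gap between them was 0.17 on the log2 scale, against 0.54 for Ocln. Its log2 fold change of 0.42 ± 0.14 did not pass (limma adjusted p = 0.0805), with an interval from 0.08 to 0.76. Without WT replicate 2 it was 0.50 and passed (limma adjusted p = 0.0448). Its 2 probe sets gave the same log2 fold change to 2 decimals, 0.42 in both. Their values were nearly the same in every array, so this likeness is no independent support. Ocln and Marveld2 are next to each other among protein-coding genes. Their outer neighbours Gtf2h2 and Rad17 serve transcription and the DNA damage checkpoint. They had log2 fold changes of 0.14 ± 0.16 and 0.09 ± 0.17 that did not pass (limma adjusted p = 0.583 and 0.75). Neighbours of other members did move. Usp25, beside Cxadr, rose by 0.83 ± 0.20 (limma adjusted p = 0.0259). Beside Tjp1, Nsmce3 rose by 0.87 ± 0.16 and Tarsl2 had -1.24 ± 0.25 (limma adjusted p = 0.00979 and 0.0135). The remaining measured neighbours outside the 9 genes did not pass.

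The scaffold proteins of the cytoplasmic plaque follow. Tjp3 encodes zonula occludens 3, a scaffold found in epithelia. It had ratios of 0.939, 1.10 and 0.961 in WT, 1.27, 1.75 and 1.70 in the arrays labelled STAT5b-/- and 1.10 in REF. STAT5b-/- replicate 1, the male, lay below the other two but above every wild type sample. The mean was 1.57 ± 0.262 against 1.0 ± 0.0881 (SD, n = 3 each), a fold change of 1.56 with an interval of 1.19 to 2.05 (limma adjusted p = 0.0341). This call held in 9 of the 16 other settings tried, the fewest of the 4 genes that rose. Among these settings, sex as a covariate and leaving out STAT5b-/- replicate 1 are the same fit. The call was lost without WT replicate 1, WT replicate 3, STAT5b-/- replicate 2 or STAT5b-/- replicate 3, with limma adjusted p of 0.0898, 0.0977, 0.121 and 0.121, and held without the other two arrays.

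Tjp1 encodes zonula occludens 1, the main scaffold that joins occludin and claudins to actin. Its ratios were 0.921, 1.10 and 0.979 in WT, 1.28, 1.18 and 1.15 in the arrays labelled STAT5b-/- and 0.915 in REF. The groups were apart by 0.06 on the log2 scale. The interval of its log2 fold change, -0.04 to 0.57, includes 0 (limma adjusted p = 0.19). It overlaps that of Tjp3, 0.25 to 1.03, and the difference between these genes was not tested. Tjp1 passed under 0 of the 16 other settings tried.

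The 2 adherens junction genes showed the smallest differences. Cdh1 encodes E-cadherin, the adhesion receptor of epithelia. Its ratios were 0.941, 1.11 and 0.952 in WT, 1.05, 1.06 and 1.15 in the arrays labelled STAT5b-/- and 1.03 in REF. The groups overlapped, as WT replicate 2 was higher than 2 of the 3 arrays labelled STAT5b-/-. The log2 fold change was 0.12 with an interval of -0.17 to 0.42 (limma adjusted p = 0.543). Ctnnb1, which encodes beta-catenin, had ratios of 0.995, 1.0 and 1.0 in WT, 1.01, 1.23 and 1.23 in the arrays labelled STAT5b-/- and 0.983 in REF. STAT5b-/- replicate 1 was at the WT level, and the other two were higher. Its log2 fold change was 0.20 with an interval of -0.10 to 0.51 (limma adjusted p = 0.325).

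Ordered by fold change the genes ran F11r, Cxadr, Ocln, Tjp3, Marveld2, Tjp1, Ctnnb1 and Cdh1, and the 95% intervals of each neighbouring pair overlapped. The interval of F11r lay wholly above those of Marveld2, Tjp1, Ctnnb1 and Cdh1, and that of Cxadr above those of Tjp1, Ctnnb1 and Cdh1. The groups did not overlap in 7 of the 8 genes, in each with the arrays labelled STAT5b-/- higher, where this held for 25.0% of all genes. Exact permutation of the group labels, two-sided, gave p = 0.10 for these 7, the smallest that 3 against 3 arrays allow, and p = 0.3 for Cdh1.

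**Figure D2:**
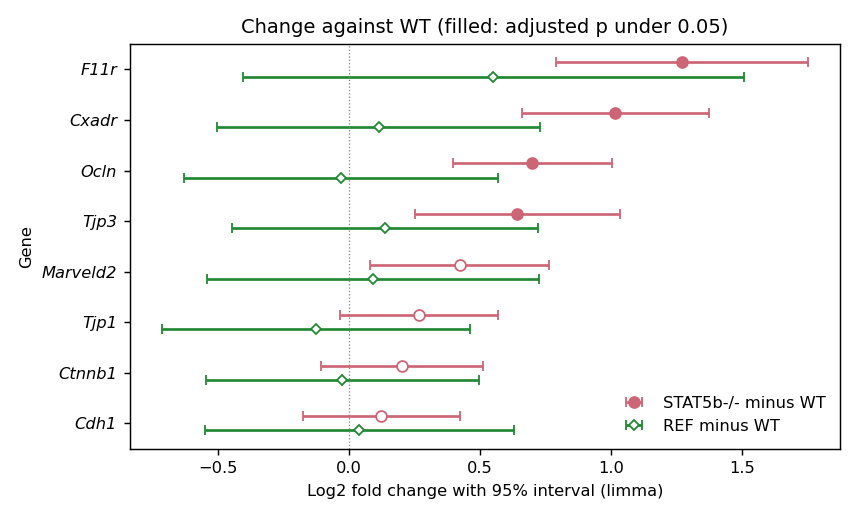
Log2 fold changes of the 8 genes against the WT arrays, with 95% intervals from limma. Circles compare the arrays labelled STAT5b-/- (n = 3) and diamonds REF (1 sample), and filled marks passed the test. Circles run from 1.27 for F11r to 0.12 for Cdh1, and 4 are filled. The intervals of all diamonds include 0.

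REF allows a wild type sample to be set beside the same WT arrays. In this comparison 0 of the 8 genes passed, as did 0% of all genes (limma, 1 sample against 3, with 208 of 14351 genes, 1.45%, at an unadjusted p under 0.05). The log2 difference between REF and WT was 0.55 ± 0.36 for F11r, with an interval of -0.41 to 1.51. For the other 7 genes it lay between -0.12 for Tjp1 and 0.14 for Tjp3. The 3 arrays labelled STAT5b-/- lay above REF in all 8 genes, by a margin of 0.64 on the log2 scale for F11r and 0.71 for Cxadr down to 0.04 for Ctnnb1 and for Cdh1. They lay above all 4 wild type samples in 7 of the 8, where this held for 22.6% of all genes. Both comparisons share the WT arrays, so their signs are not independent. With REF joined to the WT arrays, the same 4 genes passed.

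Ratios between genes of one array do not change when the whole array is multiplied by a constant, but quantile normalization can change them. Relative to Cdh1 in the same array, F11r was higher by 1.15 on the log2 scale in the arrays labelled STAT5b-/- than in WT, Cxadr by 0.89, Ocln by 0.58 and Tjp3 by 0.52. In these 4 genes the groups did not overlap in this ratio. For Marveld2, Tjp1 and Ctnnb1 the differences were 0.30, 0.14 and 0.08, and the groups overlapped. Cdh1 had the smallest log2 fold change of the 8 genes, so each of these differences is above 0 by construction. The ratio does not show that Cdh1 stayed the same, and differences between genes were not tested.

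The membrane and scaffold genes were next set against general epithelial markers, since those moved too. Of 10 measured epithelial markers 4 were called higher, 1 was called lower and 5 did not pass, and their median log2 fold change was 0.46. Over all genes 13.3% were called higher and 8.42% lower. Spint1 and Spint2, inhibitors of surface serine proteases, rose by 0.99 ± 0.19 and 0.67 ± 0.13 (limma adjusted p = 0.0127 and 0.0123), while Epcam, an adhesion protein of most epithelia, had 0.39 ± 0.13 and did not pass (limma adjusted p = 0.0798). Krt18, a keratin, was the marker called lower, with -0.51 ± 0.14 (limma adjusted p = 0.0446). The median log2 ratio of the 10 markers was 0.32 to 0.51 in the arrays labelled STAT5b-/- and -0.03 to 0.04 in WT. Each array was also centred on that median, a step chosen after the data were seen. F11r and Cxadr were then still called higher, by 0.84 ± 0.19 and 0.58 ± 0.18 (limma adjusted p = 0.0152 and 0.0399). Ocln and Tjp3 were not (0.27 ± 0.16 and 0.21 ± 0.15, limma adjusted p = 0.208 and 0.263). On that scale the median of all genes was -0.43, and the log2 fold changes of Marveld2, Tjp1, Ctnnb1 and Cdh1 became -0.01, -0.17, -0.23 and -0.31, none of which passed.

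Other cell types also moved with the groups, and the share over all genes was 13.3% called higher and 8.42% lower. Fibroblast markers were lower in 7 of 8, macrophage markers in 5 of 6, goblet cell markers in 5 of 7, B and plasma cell markers in 3 of 6 and mast cell markers in 3 of 5. Their median log2 ratios in the arrays labelled STAT5b-/- ranged over -1.17 to -0.83 for fibroblasts, -1.33 to -0.77 for macrophages, -1.95 to -1.15 for goblet cells, -2.45 to -1.46 for B and plasma cells and -2.01 to -1.63 for mast cells. In WT these ranges were -0.17 to 0.10, -0.16 to 0.24, -0.05 to 0.08, -0.35 to 0.29 and -0.94 to 0.96. Absorptive colonocyte markers were higher in 6 of 9 and lower in 1, with medians of 0.74 to 0.92 against -0.02 to 0.02 in WT. Smooth muscle and enteric neuron and glia markers had 0 called of 7 and of 6 (limma), endothelial markers 1 of 8, and T cell markers 2 higher and 1 lower of 5. None of the measured markers was at the lowest value of the table in any array. The part of these differences in the values of the junction genes was not tested.

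**Figure D3:**
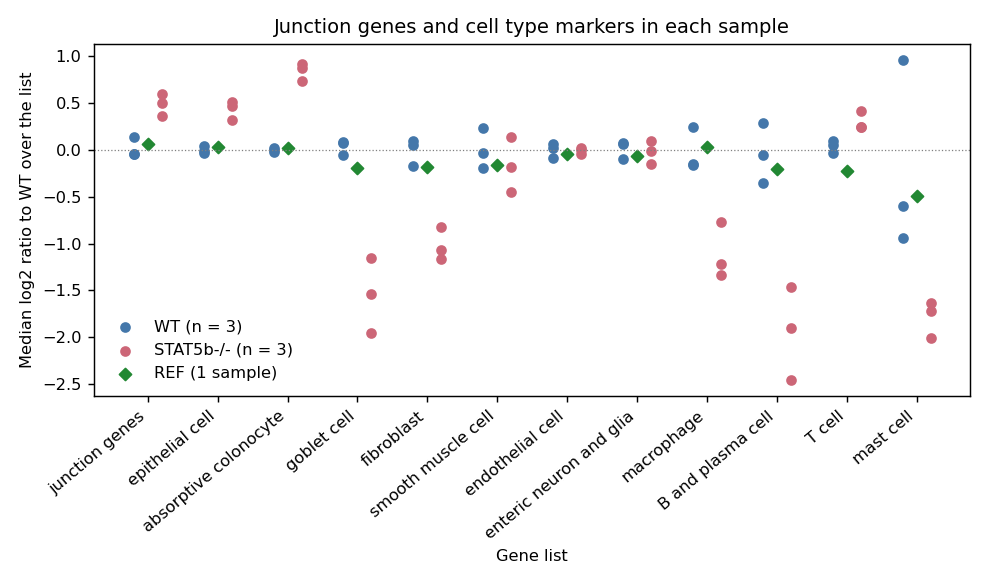
The vertical axis gives, for each array, the median log2 ratio to WT over the measured genes of a list: the 8 junction genes and the markers of 11 cell types. Blue points are WT, red points STAT5b-/- and the green diamond REF. In the arrays labelled STAT5b-/- the junction genes lie at 0.37 to 0.60, beside the epithelial markers at 0.32 to 0.51, while fibroblast, macrophage and goblet cell markers lie below -0.77.

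Partners of these genes in the belt were counted from lists of junction, polarity and cytoskeletal genes. Each count from here through the claudins is to be read against the share over all genes, 13.3% called higher and 8.42% lower. Among 19 other strand and plaque genes of the tight junction, 3 rose and 1 fell, with a median log2 fold change of 0.06. These counts are close to the shares over all genes. Ildr1 and Lsr encode angulins, which bring tricellulin to the corners between cells, and they went opposite ways. Ildr1 rose by 1.53 ± 0.18 to a mean ratio of 2.85 ± 0.0784 (SD, n = 3), and Lsr fell by 1.07 ± 0.17 to 0.473 ± 0.0563. Patj, a scaffold with many PDZ domains, rose by 0.43 ± 0.12 (limma adjusted p = 0.047).

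Polarity complexes mark the apical side and position the junction, and 6 of their 16 measured genes rose and 0 fell, with a median of 0.34. Mpp5 (also called Pals1), which binds Patj and the Crumbs proteins, rose by 1.11 ± 0.16. Crb3, the Crumbs protein of epithelia, rose by 0.85 ± 0.12 from tight WT arrays (SD 0.0223). Llgl2, of the basolateral Scribble module, rose by 0.77 ± 0.13, and Prkci, the atypical protein kinase C that opposes it, by 0.73 ± 0.14. Adjusted p (limma) for these 4 was between 0.00351 and 0.0108.

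Other adherens junction genes rose in 4 of 16 and fell in 0, with a median of 0.20. Nectin2, an immunoglobulin-like adhesion protein, rose by 1.22 ± 0.19 and Cdh17, the liver-intestine cadherin, by 0.85 ± 0.14. Actn4, which crosslinks actin, rose by 0.55 ± 0.12 and Ctnnd1, the catenin that holds E-cadherin at the surface, by 0.57 ± 0.14 (limma adjusted p = 0.018 and 0.0321). Desmosome genes rose in 3 of 9 and fell in 0, with a median of 0.28. These were the cadherins Dsg2 (1.05 ± 0.15) and Dsc2 (0.55 ± 0.13) and the plaque protein Pkp3 (0.94 ± 0.17). Among 10 actomyosin ring genes, 1 rose and 1 fell, close to the shares over all genes. Myh14, a non-muscle myosin heavy chain of epithelia, rose by 0.87 ± 0.14, and its relative Myh10 fell by 0.81 ± 0.20.

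Of 11 genes that degrade beta-catenin or act with it in the nucleus, 1 rose and 1 fell, close to the shares over all genes. Axin2, a feedback target of Wnt signalling, fell by 0.74 ± 0.14 to a mean ratio of 0.597 ± 0.0456 (SD, n = 3), while REF had 1.33. Tcf7l1, a DNA-binding partner of beta-catenin, rose by 0.89 ± 0.24 (limma adjusted p = 0.0433), from WT arrays with an SD of 0.355. Epithelial transcription factors rose in 6 of 15 and fell in 2. The largest adjusted p among the 4 with the smallest p was 0.00186 (limma). Their rises were 1.67 ± 0.16 for Ovol2, 1.38 ± 0.16 for Ovol1, 1.31 ± 0.15 for Grhl1 and 1.13 ± 0.12 for Elf3. The 2 that fell were Ehf, with -0.92 ± 0.14, and Foxa1, with -0.67 ± 0.12 (limma adjusted p = 0.0056 and 0.0091). The other 7 did not pass. Among 6 repressors known to act on junction genes, 0 rose and 2 fell. Snai2 (Slug) fell by 1.12 ± 0.17 and Zeb2 by 0.73 ± 0.17 (limma adjusted p = 0.0048 and 0.0231), and REF had ratios of 0.714 and 0.962. The other 4 did not pass. Twist1 and Twist2 had log2 fold changes of 0.69 ± 0.27 and 0.24 ± 0.18, and Snai1 and Zeb1 had -0.46 ± 0.30 and -0.37 ± 0.15. Snai2 and Zeb2 are also used by fibroblasts and macrophages, whose markers were lower here, and their part in these falls was not tested.

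The claudins ran over a wider range. Of 12 measured, 3 rose and 2 fell, with a median of -0.18 and a range from -1.97 for Cldn8 to 4.40 for Cldn4, where the 8 junction genes ran from 0.12 to 1.27. This is a description of both lists, and the difference between them was not tested.

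Over these 9 lists of partners, 36 of 114 genes were called, 27 higher and 9 lower. Over all genes, 21.7% were called, 13.3% higher and 8.42% lower. Under quantile normalization 3 of the 36 remained: Elf3, Ovol2 and Cldn8. With arrays centred on epithelial markers 19 remained, 10 of the 27 that rose and all 9 that fell, and Patj changed sign. Without STAT5b-/- replicate 2, 23 remained. No other called gene of these lists changed sign under any of the 16 settings.

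**Figure D4:**
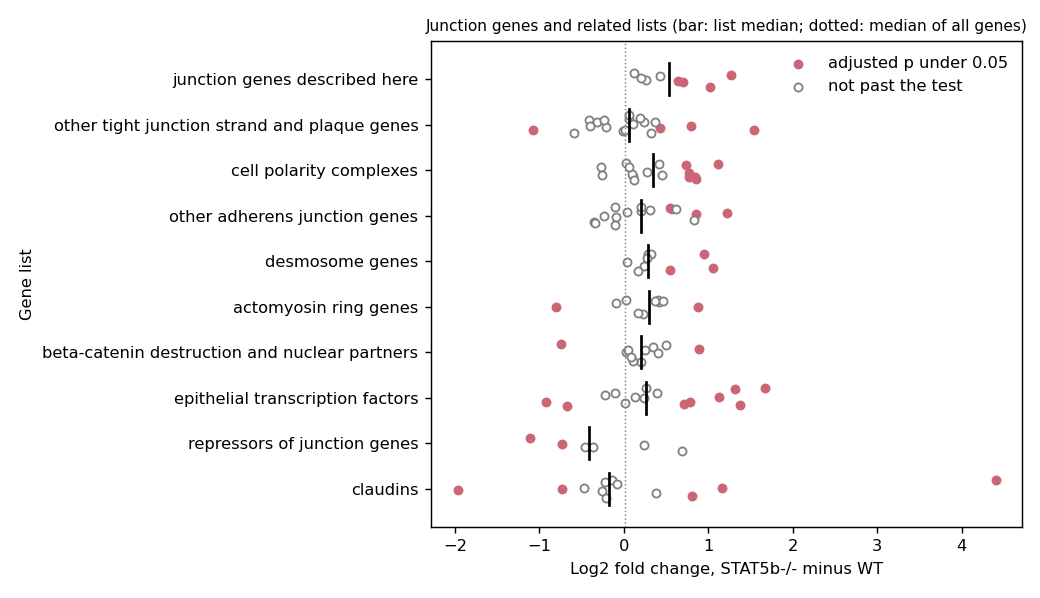
Log2 fold change, STAT5b-/- minus WT, for every measured gene of 10 lists, 1 point a gene. Red points passed the test and open points did not, black bars are list medians, and the dotted line is the median of all genes (0.01). Among these 10 lists, chosen with earlier results known, the junction genes described here have the highest median, 0.53, and the repressors the lowest, -0.41. Absorptive colonocyte markers, not drawn here, have 0.86.

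The genes most like each risen member were sought over 14096 other named genes by the Euclidean distance between log2 ratios in the 7 samples. This measure takes in both the shape and the size of the change, and no test goes with it. Nearest to Ocln was Atg4b, a protease of autophagy, at a distance of 0.115, followed by the glycosyltransferase Galnt4 (0.13) and the histone demethylase Kdm5b (0.146). F11r had more distant neighbours, among them the histamine receptor Hrh1 at 0.433 and the lysosomal cholesterol transporter Npc1 at 0.48. Cxadr had Coq8b (0.193), B3gnt2 (0.2) and Ccng2 (0.2), and Tjp3 had the proteasome subunit Psmd11 (0.19), Cbr4 (0.218) and Foxj3 (0.224). None of these genes is on the junction lists.

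**Figure D5:**
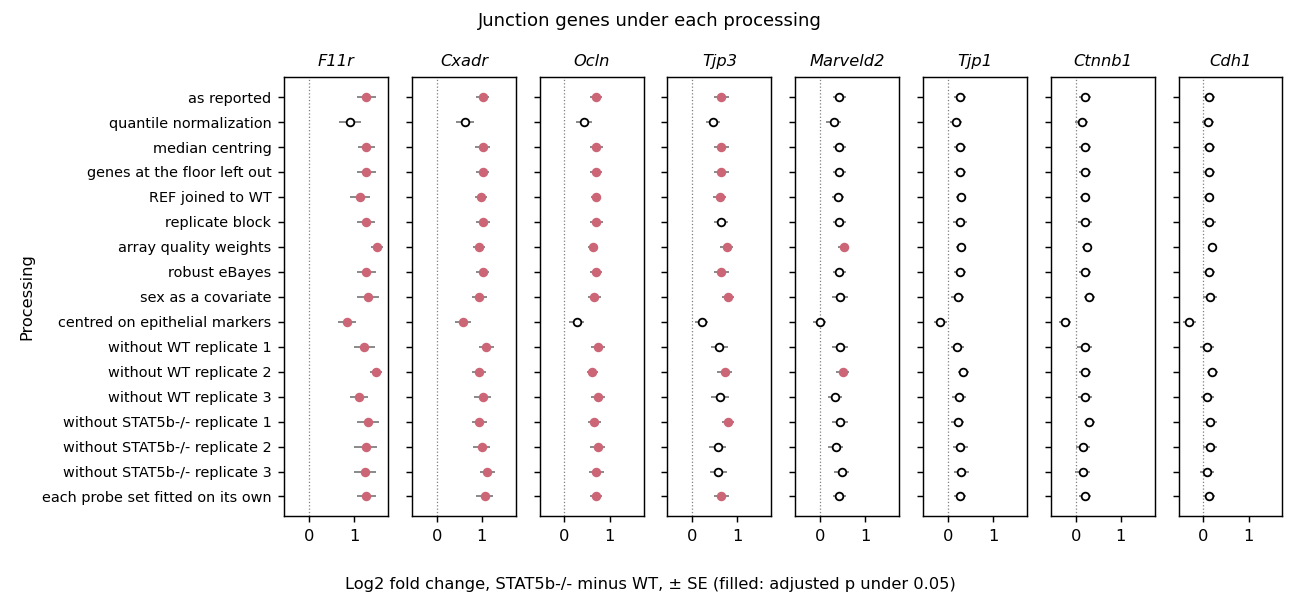
Each panel is a gene, each line a way of processing, and each point the log2 fold change, STAT5b-/- minus WT, ± SE. Filled points passed the test. F11r and Cxadr are filled in all lines but quantile normalization, and Tjp1, Ctnnb1 and Cdh1 in none. Centring on epithelial markers moves Marveld2, Tjp1, Ctnnb1 and Cdh1 to -0.01, -0.17, -0.23 and -0.31.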

How the data were processed

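Colon RNA (100 ng per sample) was amplified in 1 round and labelled with biotin, per the labels' protocols. RMA is named in the submitters' processing notes, with no version. No source used here names the array type. The deposited table holds 26180 probe sets as linear ratios: the mean of the 3 WT columns is 1 in every row, to within 1.87e-07, which shows that the authors divided by that mean. The lowest value, 0.01, was treated as a floor.

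Probe set accessions were matched without version to RefSeq genes of GRCm38.p6 (15228 matched 1 symbol, 10952 none). Ratios were log2 transformed with no pseudocount, and a gene's probe sets were averaged. The main comparison used limma 3.58.1 in R 4.3.3 over the 6 STAT5b-/- and WT arrays, with Benjamini-Hochberg adjustment over 14351 genes. REF was compared with WT as 1 sample. Their number limits the precision. Errors after ± are SEs of the fit unless marked SD. The script was tested on simulated data.

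Members and lists were chosen with earlier results of these data known. Named genes are all members, the called genes with the smallest p in each list (at most 4, or 2 for cell types), Stat5b, Cldn4 and Cldn8, and the 3 genes nearest each called member. Epcam, Krt18, Ehf, Foxa1, the 4 repressors that did not pass and the gene neighbours of Ocln, Marveld2, Cxadr and Tjp1 were added after their values were seen. A few genes chosen this way are not reported here. Alternatives are given in the closing section.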

Additional observations from a re-analysis of the deposited data

How the results depend on the processing

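All 16 other settings, for 8 genes each, kept the sign of F11r, Cxadr, Ocln and Tjp3. F11r and Cxadr passed in 15 of 16, Ocln in 14, Tjp3 in 9, Marveld2 in 2, and Tjp1, Ctnnb1 and Cdh1 in 0. Quantile normalization left 0 of the 8 genes and 330 of all genes called (126 higher, 204 lower), in place of 4 and 3119. It forces one distribution on arrays whose SD of log2 ratios was 0.289 to 0.363 in WT and 0.646 to 0.737 in those labelled STAT5b-/-. REF, which is not part of the WT mean, had 0.402. Division by that mean makes part of the difference in SD, and its part in the loss of calls was not tested. Centring on epithelial markers, chosen after seeing the data, left 2 genes and 5388 of all genes called (726 higher, 4662 lower). With sex as a covariate, which removes the only male, 1914 genes were called, and the same 4 members. This is the same fit as leaving out STAT5b-/- replicate 1, and the tallies count it under both settings. Leaving out each array gave 1716 to 3551 genes and 3 to 5 members. Array quality weights added Marveld2 (log2 fold change 0.52, limma adjusted p = 0.0173).

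With the replicate number as a block, 2039 genes were called and Tjp3 was lost (limma adjusted p = 0.0568), with no other change among the 8. Whether same-numbered arrays share more than a number is not stated and cannot be told from 3 arrays a group. Deviations of same-numbered arrays correlated at 0.04, -0.10 and -0.19 over genes, and those of other pairs at -0.14 to 0.22. For REF against WT, 0 of the 8 genes passed under any of 5 settings. Signal over background was not analysed here, so dim probe sets could not be set aside.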
